A study of Homo sapiens with 2 samples.

Results

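The far intergenic regions bound with both antibodies were 490 of the 7687 peaks listed for ab21061 in NB4 cells (6.37%, exact Clopper-Pearson 95% interval 5.84 to 6.94) and 10.0% of the 4896 that an sc8558 peak overlapped. NB4 is an established acute promyelocytic leukemia line carrying the PML-RARA fusion. Its chromatin was fixed with formaldehyde for 10 min and immunoprecipitated with 5 µg of antibody, in 1 library for each of 2 antibodies, ab21061 and sc8558, described as raised against separate portions of GFI1. The antibody labels name GFI1, whereas the immunoprecipitation protocol names the PML/RARα fusion protein, and GFI2 stands in the sc8558 sample's title. Regions were chosen by the overlap of measured peaks and by position, and each ab21061 peak had to share at least 1 bp with an sc8558 peak. Its midpoint also had to lie outside every protein-coding gene and over 100 kb from the nearest end of one, and outside the longest stretch of its chromosome without any annotated gene. No drug treatment is named for the cells, and neither immunoprecipitation was replicated. Intervals therefore reflect counting error alone, and no test between samples was possible.

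GFI1 is a zinc-finger repressor that recruits histone demethylase and deacetylase complexes and helps set granulocyte against monocyte fate. Elements far from genes can act on promoters over long distances through chromatin loops, and several blood genes are controlled by such distal enhancers. A gene beside a region is named here by position, and its regulation was not measured.

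Many of the regions lay in genes that the annotation does not class as protein-coding. Such genes held the midpoints of 185 of the 490 regions (37.8%, 33.4 to 42.2) and covered 26.7% of the sequence that meets the same position rule, and transcription was not measured. In addition, 9 regions touched the promoter window, 250 bases before to 50 after the start, of 10 long noncoding RNA genes in RefSeq (GRCh38.p14). The windows below are 4 of those 10, shown since at least 284 of their 300 bases lay under the ab21061 peak and all 300 under the sc8558 peak. Others met this as well, namely LINC00513, whose window overlaps that of LINC-PINT on the opposite strand, and JPX. Capitals mark every match, on either strand, to 1 of 7 short motifs, and no base was shared by matches to different motifs. The GFI1 motif searched was AAATCA, which holds the known core of its site. The AP-1 motif was TGANTCA, the GATA motif was AGATAA and the ETS motif was AGGAAGT. The C/EBP motif was TTGCNNAA and the RUNX motif was TGTGGTT, and a longer CTCF motif is given by name alone.
LOC105374630, chr5:4975231-4975530, minus strand: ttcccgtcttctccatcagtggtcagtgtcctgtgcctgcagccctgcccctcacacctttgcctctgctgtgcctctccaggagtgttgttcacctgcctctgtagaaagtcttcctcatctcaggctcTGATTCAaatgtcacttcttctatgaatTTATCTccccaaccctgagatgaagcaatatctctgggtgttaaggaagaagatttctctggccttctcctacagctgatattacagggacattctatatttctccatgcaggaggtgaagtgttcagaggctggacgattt
LOC107987240, chr16:90210297-90210596, minus strand: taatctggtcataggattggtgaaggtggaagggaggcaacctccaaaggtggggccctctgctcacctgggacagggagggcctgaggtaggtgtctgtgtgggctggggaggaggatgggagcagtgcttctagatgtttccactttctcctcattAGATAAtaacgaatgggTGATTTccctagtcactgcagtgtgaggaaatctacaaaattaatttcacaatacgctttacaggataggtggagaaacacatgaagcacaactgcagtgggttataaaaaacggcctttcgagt
LOC105374016, chr3:102673788-102674087, minus strand: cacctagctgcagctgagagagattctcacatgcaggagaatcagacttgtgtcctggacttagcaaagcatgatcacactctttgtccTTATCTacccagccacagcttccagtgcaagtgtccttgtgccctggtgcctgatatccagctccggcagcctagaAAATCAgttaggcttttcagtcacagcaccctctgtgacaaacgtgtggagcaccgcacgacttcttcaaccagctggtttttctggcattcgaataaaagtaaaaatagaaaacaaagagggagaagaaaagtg
LINC-PINT, chr7:130913261-130913560, minus strand: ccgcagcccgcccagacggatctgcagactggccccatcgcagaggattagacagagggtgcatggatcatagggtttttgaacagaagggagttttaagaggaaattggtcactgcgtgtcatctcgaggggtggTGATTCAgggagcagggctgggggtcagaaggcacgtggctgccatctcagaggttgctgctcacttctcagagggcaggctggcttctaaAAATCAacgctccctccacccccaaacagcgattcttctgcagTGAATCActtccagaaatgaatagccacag

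The window of LOC105374630 held matches to the AP-1 and GATA motifs, and its region scored 320.92 with ab21061 and 299.77 with sc8558. LOC107987240 (177.68 and 119.14) and LOC105374016 (191.23 and 261.5) each held GFI1 and GATA matches. LINC-PINT, a noncoding RNA gene induced by p53, held GFI1 and AP-1 matches under a region that scored 83.86 and 82.78. Matches were counted over whole windows, whether or not they lay under a peak. The GFI1 and C/EBP matches of LOC105373872 lay outside both peaks. The AP-1 match of LOC107984608 and the AP-1 and ETS matches of LOC389602 lay outside the ab21061 peak. Of the 10 windows 5 held the GFI1 motif, against 13.2% of all 35116 promoter windows in the table. The AP-1 motif was in 5 of the 10 against 7.71% of all windows, the GATA motif in 4 against 10.3%, and the ETS and C/EBP motifs in 2 each against 8.24% and 10.5%. RUNX and CTCF motifs had 0 matches in the 10, against 4.27% and 0.282%. With 10 windows, of which a pair covers largely the same bases, these shares are only a description. All 10 belong to long noncoding RNA genes, and no share over the windows of such genes alone is given. The remaining 4 genes with a touched window were LOC107984608, LINC00683, LOC105373872 and LOC389602, whose regions covered 135, 119, 123 and 82 bases of it with ab21061. No other sequence of the regions was examined.

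Far from protein-coding genes, outside the longest gene-free stretches, peaks were sparse and were less often found with both antibodies. Of the 874 ab21061 peaks over 100 kb away, 56.1% (52.7 to 59.4) were overlapped by an sc8558 peak, where the whole list gave 63.7%. The share was 75.3% within 1 kb of a gene end, 65.7% at 1 to 10 kb, 65.4% at 10 to 100 kb and 64.3% inside genes. Compared with all nearer and genic peaks, the far share was lower by 9.20 percentage points (Newcombe 95% interval of the difference -12.7 to -5.72). In the sc8558 list 58.7% of 830 far peaks were overlapped, where that whole list gave 65%, and the difference from nearer and genic peaks was -7.24 points (-10.8 to -3.71). Overlap was part of how the regions were chosen, so these shares describe the far peaks as a class.

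The difference was widest among ab21061 peaks of the lowest scores. The score is the authors' value for each peak, which in lists from this caller conventionally rises as the p-value falls, and its level cannot be compared between libraries. Among far ab21061 peaks scoring 50 to 60, 23.9% were overlapped, against 33.5% of nearer and genic peaks, a difference of -9.58 points (-15.1 to -3.35). At 60 to 80 the shares were 45.5% and 50.3%, at 80 to 100 they were 62.9% and 67.4%, and at 100 to 150 they were 79.2% and 82.8%. In each of these 3 bands the interval of the difference included 0. From 150 upward all 145 far ab21061 peaks were overlapped, as were 98.6% of the others. For sc8558 the interval of the difference excluded 0 only at 100 to 150, where 80.2% of far peaks and 87.8% of the others were overlapped.

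**Figure D1:**
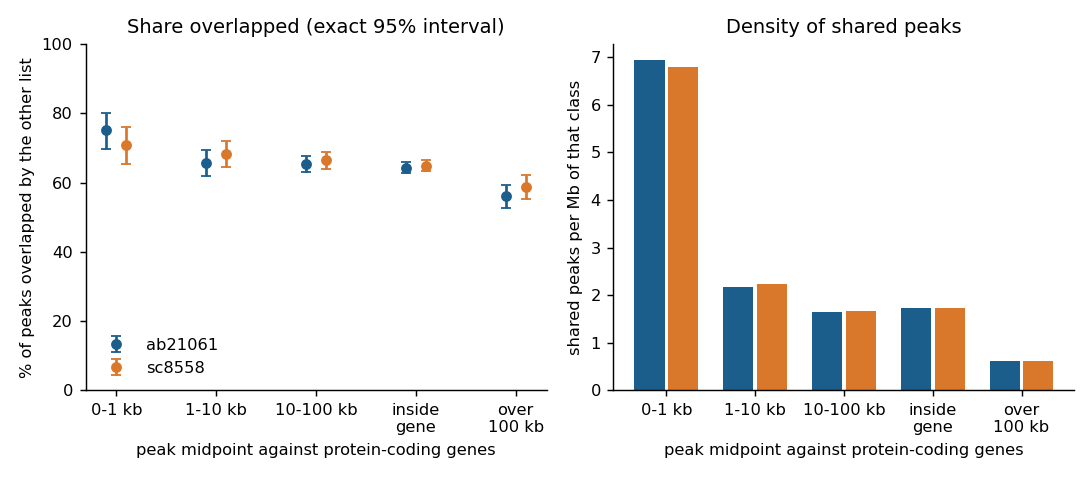
Left, percent of peaks of each list overlapped by the other list, with exact 95% intervals, by position of the peak midpoint against protein-coding genes. Right, shared peaks per Mb of sequence in each position class. Points and bars over 100 kb, at 56.1% and 58.7% and at 0.611 and 0.607 per Mb, are the lowest of the 5 classes. The longest gene-free stretches are not shown.

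**Figure D2:**
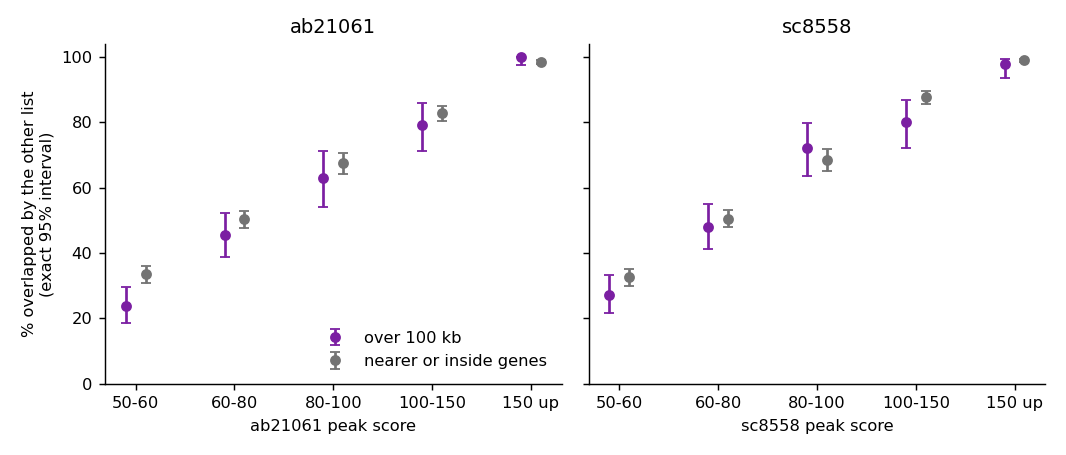
Percent of peaks overlapped by the other list within bands of the peak's own score, for peaks over 100 kb from genes and for nearer or genic peaks, with exact 95% intervals. Both kinds rise with the score, from 23.9% and 33.5% at 50 to 60 in the ab21061 list to 100% and 98.6% at 150 or more.

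Sequence meeting the same position rule covered 802 Mb, or 27.8% of the bases between the first and last protein-coding gene of each chromosome outside the longest gene-free stretches. It held 488 of the regions, 0.608 per Mb, and the other 2 lay beyond the last protein-coding gene of their chromosome. With those 2 counted, the regions were 11.4% of the shared peaks outside the longest stretches, and the density was 0.611 per Mb (exact Poisson interval 0.558 to 0.667). Counted in that way, it was 1.65 per Mb at 10 to 100 kb, 1.72 inside genes and 6.93 within 1 kb of a gene end. The longest gene-free stretches, which the rule leaves out, held 612 shared ab21061 peaks, 3.14 per Mb. Regions lay a median of 234 kb from the nearest protein-coding gene end, with quartiles of 149 and 438 kb. Beyond 200 kb there were 276 and beyond 1000 kb 47. The 3 just past the limit lay at 100.4, 100.7 and 101.2 kb, nearest to PRSS58, CYP1B1 and SLC38A2, and scored 145.25, 121.05 and 90.91 with ab21061. The 3 just short of it lay at 99.8, 99.6 and 99.4 kb, nearest to SPRY2, SLC38A4 and JUN, and scored 433.03, 99.8 and 84.22. Chromosome 2 held 59 regions and chromosome 5 held 46, whereas chromosome 15 had the highest density, 1.41 per Mb of far sequence. Chromosome 11 held 4, at 0.145 per Mb, and chromosome 18 held 2, at 0.0774 per Mb. Chromosome 19, with 2.88 Mb of far sequence, held none.

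Not all of them stood in ordinary gene deserts. The rule leaves out 1 stretch per chromosome, and 46 regions lay in 10 gaps between protein-coding genes that hold such a stretch. In the gap from EPHA3 to PROS1 on chromosome 3 there were 13, in that ending at OR11H1 on chromosome 22 there were 9, and in that ending at OR11H12 on chromosome 14 there were 8. The 5 regions farthest from any protein-coding gene, at up to 3829 kb, lay in the chromosome 22 gap and in that from ZNF716 to LOC124901649 on chromosome 7, with ab21061 scores from 50.4 to 185.74. In these 10 gaps the median ab21061 score was 91.1 and the median width 651 bp, against 102 and 798 bp for the other 444. Without those gaps the far share overlapped was 56.9%. A further 5 lay in the gap from TPTE to POTED on chromosome 21, among them 1 with scores of 527.84 and 316.62.

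The paired peaks of the regions lay close together, although an overlap was itself required by the rule. Of the regions, 485 were each matched by a single sc8558 peak and the other 5 each by a pair. Midpoints of the paired peaks lay a median of 67.5 bp apart, within 100 bp in 327 regions and at most 1126 bp apart, and the median overlap was 99.6% of the smaller peak. No matching values over other shared peaks are given, so these describe the regions alone. ab21061 scores ran from 50.24 to 1599.57 with a median of 100 (order-statistic 95% interval 95.2 to 108), where the nearer and genic shared peaks had a median of 110 (107 to 113). The sc8558 far peaks had a median of 97.4 (92.8 to 105) against 108 (105 to 111). Widths were also smaller, with ab21061 medians of 786 bp (767 to 815) and 880 bp (870 to 890), and sc8558 medians of 762 bp (741 to 776) and 834 bp (826 to 843).

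A score of 100 or more was reached by 248 of the 490 regions with ab21061 (50.6%), where all shared peaks gave 54.3%, and the share was 4.79 points lower than in nearer and genic shared peaks (-9.48 to -0.109). In the sc8558 list 230 of 487 far shared peaks reached it (47.2%), where all shared peaks gave 53.8%, a difference of -8.36 points (-13.0 to -3.65). With both antibodies, taking the sc8558 peak of larger overlap, 179 regions reached 100 and 189 did so with neither. No such counts over all shared peaks are given, so these describe the regions alone. Score ranks of the paired peaks had a Spearman rho of 0.663 over 490 pairs, and widths 0.646, against 0.714 and 0.676 over 3794 nearer and genic pairs. Pairs come from the same cells and possibly the same control, and some adjacent regions shared an sc8558 peak, so these are descriptions.

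**Figure D3:**
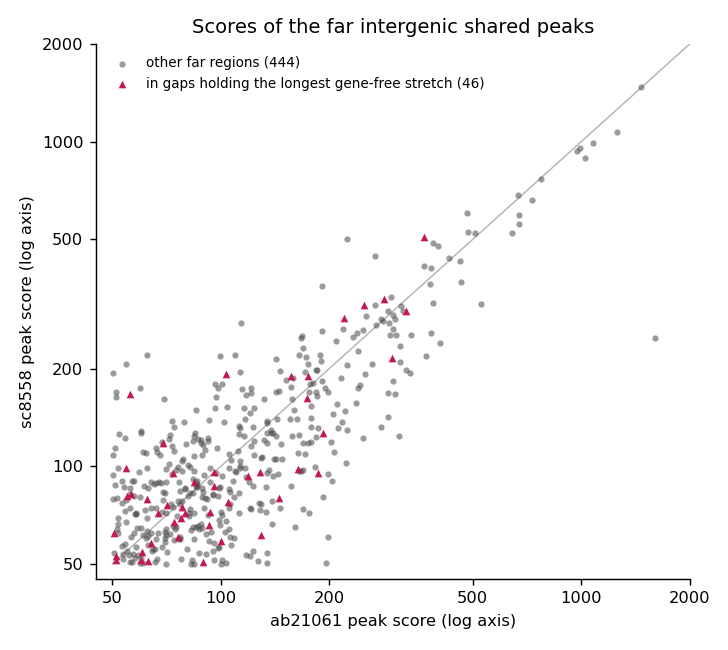
ab21061 score against sc8558 score of each of the 490 regions, both on log axes, with the line of equal values. Triangles mark the 46 regions in gaps holding a longest gene-free stretch. The point far below the line, at 1599.57 and 248.97, lies inside CCDC26.

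The highest-ranking regions lay in varied settings, and 13 scored over 500 with both antibodies, a count given without its match over other shared peaks. Taking the worse of its 2 ranks, the first was chr3:96617118-96618523 (1461.83 and 1475.18), inside MTRNR2L12, a nuclear copy of mitochondrial sequence, at 197 kb from EPHA6. Whether reads from mitochondrial DNA entered its scores was not tested, and the control and read filters are unknown. The region ranked next, chr15:39262754-39263947 (1254.17 and 1073.99), lay inside the noncoding gene LOC105370777 in the gap from RASGRP1, which encodes an activator of Ras in lymphocytes. A region in the gap between CXCL12, the ligand of CXCR4, and TMEM72 on chromosome 10 scored 1079.79 and 990.04. One inside MEF2C-AS1, 390 kb from MEF2C, which encodes a transcription factor of muscle and blood, scored 1026.67 and 892.61. One between the cadherin genes CDH10 and CDH9 scored 995.51 and 954.7, and one inside MIR181A1HG scored 972.04 and 935.23. The other 4 of the 10 lay nearest to ANAPC1, CNTNAP2, MAT2B and LOC124902565, the last in the gap before KLF6, a zinc-finger gene of macrophages, with scores of 667.03 and 685.03.

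When regions with midpoints within 50 kb of the next were joined, the 490 formed 381 groups, of which 314 were single regions and 20 had 3 or more. Shared peaks within 100 kb of a protein-coding gene are left out by the rule, so groups near that limit may be cut short. The largest group, 9 regions over 152 kb, lay beyond PTPRC, which encodes the leukocyte phosphatase CD45. It began with the region at chr1:198880970-198881877, 124 kb from PTPRC. Then came regions scoring 59.4 and 96.03, 60.01 and 64.69, 105.66 and 109.05, and 141.99 and 123.51, all 5 inside MIR181A1HG. The last 4 scored 88.83 and 108.2, 128.65 and 73.29, 54.32 and 122.38, and 115.92 and 123.51. The first region therefore stood far above its neighbours with both antibodies. In all, the gap from PTPRC to NR5A2 held 12 regions in 1.07 Mb of far sequence.

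MIR181A1HG is the host of 2 microRNA genes, MIR181A1 and MIR181B1, whose products act in blood cell differentiation. The strongest region of the group lay 21.8 kb from the first and 21.99 kb from the second. These genes were added after the values were seen, since the rule named only microRNA genes within 10 kb. Their 5p products are printed with the seed, bases 2 to 8, in capitals, and the seeds are identical. Below them are the products of the 2 genes within that limit whose regions had the highest ab21061 scores.
hsa-miR-181a-5p: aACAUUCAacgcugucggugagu
hsa-miR-181b-5p: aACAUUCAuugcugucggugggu
hsa-miR-4494: cCAGACUGuggcugaccagagg
hsa-miR-492: aGGACCUGcgggacaagauucuu
MIR4494 lay 2.58 kb from a region on chromosome 12 that scored 383.15 and 409.09. MIR492 lay 2.38 kb from another on the same chromosome, at 162.23 and 139.56. The other microRNA genes within 10 kb were MIR4289 at 1.57 kb (93.01 and 89.45), MIR4437 at 6.52 kb (117.02 and 139.48) and MIR4307 at 8.30 kb (51.25 and 169.75).

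The second largest group, 8 regions over 57.8 kb, lay 1794 to 1850 kb beyond MYC, the proto-oncogene of growth and proliferation, and 113 kb or more from GSDMC. All 8 were inside the noncoding gene CCDC26, in the stretch known to hold a distal MYC enhancer active in blood stem and myeloid cells. Scores were 101.05 and 179.75, 171.17 and 108.99, 57.32 and 62.06, 1599.57 and 248.97, and 223.45 and 502.46 in the first 5. The last 3 had 62.55 and 69.35, 114.54 and 172.74, and 57.23 and 89.86. The antibodies thus ranked different regions first, although these 2 regions are neighbours. The regions were also wide, from 723 to 8656 bp, and the widest of the 490 was among them. The gap held no other far region in its 1.76 Mb.

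The third group, 7 regions over 83.2 kb, lay 102 to 184 kb from DUSP6, which encodes a phosphatase that inactivates ERK, in the gap shared with KITLG, the ligand gene of the KIT receptor. None lay inside an annotated gene. From far to near, the scores were 382.39 and 258.09, 134.42 and 50.25, 50.43 and 53.89, 189.6 and 210.46, 76.45 and 59.63, 112.94 and 103.78, and 98.05 and 174.02. Among these 7, the farthest from DUSP6 was highest with both antibodies. Of the remaining 3 groups named by size, 2 lay in the gaps from EPHA3 to PROS1 and ending at OR11H1, with no ab21061 score above 174.69 and 129.22. The other, 4 regions over 41.3 kb between RPLP1 and TLE3, had scores of at most 178.03 and 141.03. A further 3 groups of 4, tied in number, fell outside the rule by their wider span. They lay in the gaps from ZNF716 to LOC124901649, from RASGRP1 to LOC124903470 and from OR4E1 to DAD1, with ab21061 scores of at most 163.21, 296.22 and 92.6.

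**Figure D4:**
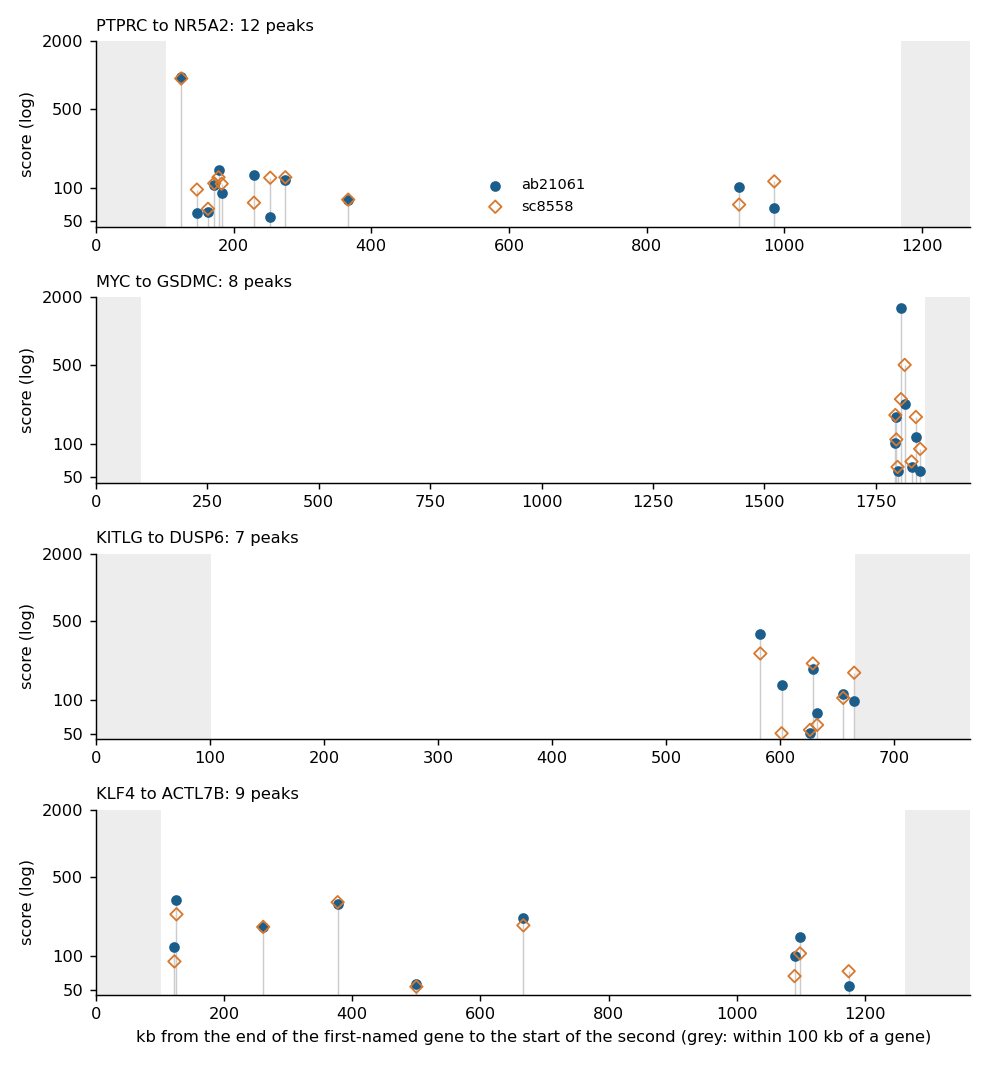
Scores of the far regions (log axis; filled circles ab21061, open diamonds sc8558) along 4 gaps, in kb from the end of the first-named gene to the start of the second. Grey bands lie within 100 kb of a flanking gene. The 8 regions between MYC and GSDMC sit together near GSDMC, whereas the 9 between KLF4 and ACTL7B are spread over the gap.

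Other gaps held single regions beside smaller groups. In all, 265 of 1673 gaps with far sequence held one (15.8%), 168 of them a single region, and 43 gaps with 3 or more held 212. Between KLF4, a zinc-finger regulator of monocyte differentiation, and ACTL7B there were 9, the 2 nearest KLF4 scoring 119.57 and 89.13, and 313.64 and 234.16. Of the 9, 6 had KLF4 as their nearest protein-coding gene. The gap from ZEB2, a zinc-finger repressor gene, to ACVR2A held 7, all nearest to ZEB2 at 126 to 1326 kb, with a highest ab21061 score of 205.64. Between DAB2 and PTGER4, the gene of a prostaglandin E2 receptor, there were 6, and a pair of adjacent ones 193 and 195 kb from PTGER4 scored 405.34 and 240.36, and 220.61 and 147.8. Between TBC1D5 and SATB1, a chromatin organizer gene of lymphoid cells, all 6 lay inside the noncoding gene BALR6, with ab21061 scores from 50.29 to 160.81. The 6 between ANKRD55 and MAP3K1, a kinase gene of the JNK and ERK pathways, ran from 56.12 to 197.97. The 7 between RASGRP1 and LOC124903470 ran from 57.83 to 1254.17, and 6 of them lay inside LOC105370777.

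Gaps beside genes of blood and of signalling feedback held regions in a larger share than gaps as a whole, but the lists are small. They were written with earlier results of these data known, and gaps were not matched for size. A list was counted by gaps, with far sequence, that have one of its genes on either side. Leaving out gaps with a longest gene-free stretch, 21 of 513 with under 0.1 Mb of far sequence held a region. Above 2 Mb, 28 of 66 did. The median far sequence was 0.325 Mb per gap for blood transcription factors, 0.580 Mb for signalling genes and 0.220 Mb for all gaps. Medians of the other lists lay on either side of that for all gaps. Of 45 gaps beside blood transcription factor genes 15 held a region (33.3%, 20.001 to 49.0), where all gaps gave 15.8%, and they held 48 regions, 1.75 per Mb against 0.608. Besides KLF4, MYC, ZEB2 and SATB1, the genes beside them included JUN, part of AP-1, with 3 (the highest 208.74 and 242.48). RUNX1, a core regulator of blood stem cells, had 2 (292.26 and 276.28, and 79.71 and 84.82). Without the gap from MYC to GSDMC the list's gaps held 8.30% of regions, against 9.80% with it.

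Signalling and feedback genes stood beside 29 such gaps, of which 12 held a region (41.4%, 23.5 to 61.1), with 31 regions or 1.46 per Mb. Their leading genes were RASGRP1 and DUSP6 with 7 each, and SPRY2 and DUSP4 with 4 each. All 7 beside DUSP6 had it as their nearest protein-coding gene, whereas none of those beside RASGRP1 did. SPRY2 and DUSP4 encode inhibitors of ERK signalling. SPRY2's highest region scored 184.66 and 164.35, and that of DUSP4 143.28 and 139.9. DUSP10, another phosphatase gene of MAP kinases, had 3. Leukocyte surface and adhesion genes had regions in 4 of 6 gaps (66.7%, 22.3 to 95.7), beside PTPRC with 12, CD83 with 3, ITGA6 and ITGA4. The highest of the CD83 gap, which runs to JARID2, scored 485.83 and 528.21. No region was nearest to CD83 or ITGA6. Receptor genes had regions in 3 of 11 (27.3%, 6.02 to 61.0), beside PTGER4 with 6, and IFNGR1 and CXCR4 with 1 each. The region beside IFNGR1 was nearer to OLIG3. Among corepressor partners of GFI1, 2 of 7 gaps held regions (28.6%, 3.67 to 71.0), both beside TLE3, a Groucho family corepressor gene, with 7 regions. Of those 7 regions, 3 had TLE3 as their nearest protein-coding gene.

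Of the other lists, neuronal genes stood above the background by share of gaps but below it by density, without matching for gap size. Retinoid and PML-RARA genes had a region in 1 of 8 gaps (12.5%, 0.316 to 52.7), beside CYP26B1, which encodes an enzyme that degrades retinoic acid. Cell cycle and death genes had none in 6 gaps (0 to 45.9%). Neuronal adhesion and synapse genes, which border many large deserts, had regions in 25 of 96 gaps (26.0%, 17.6 to 35.999), but their density, 0.345 per Mb, was below that of all gaps. The median far sequence of these gaps was 0.876 Mb, against 0.220 Mb for all gaps. Beside CDH9 there were 5, beside CDH10, TENM2 and PCDH10 4 each. No region was nearest to TENM2 or PCDH10. Developmental transcription factor genes outside blood had 13 of 73 (17.8%, 9.84 to 28.5) and 0.511 per Mb, led by NR2F2, an orphan nuclear receptor gene, with 8. Gaps with more far sequence held fewer regions per Mb: leaving out the gaps with a longest gene-free stretch, 1.00 per Mb where the gap had 0.25 to 0.5 Mb of it, and 0.398 where it had 1 to 2 Mb. For gaps beside blood transcription factor genes the order varied with size. They held 4.77 per Mb at 0.25 to 0.5 Mb (8 gaps), 2.29 at 1 to 2 Mb (7 gaps) and 1.08 above 2 Mb (3 gaps), where all gaps held 1.00, 0.398 and 0.326. Below 0.1 Mb they held none in 8 gaps, where all gaps held 1.05 per Mb. At 0.1 to 0.25 Mb they held 1.19 against 1.08 (11 gaps), and at 0.5 to 1 Mb 0.527 against 0.556 (8 gaps). Counts beside a list share regions, since a gap has a gene on both sides.

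**Figure D5:**
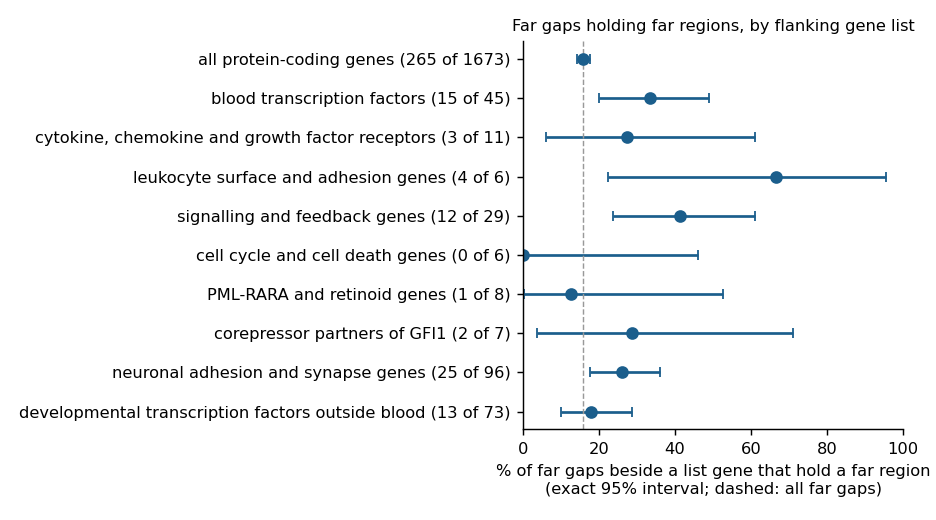
Percent of gaps with far sequence that held at least 1 far region, by list of flanking genes, with exact 95% intervals and the number of gaps. The dashed line is the share over all gaps, 15.8%. The intervals of blood transcription factor, leukocyte surface, signalling and neuronal genes lie above that line, and the other 5 lists' intervals include it. Lists were written with earlier results of these data known, gaps were not matched for size, and no set test was run.

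Long noncoding RNA genes covered 24.9% of the far sequence and held the midpoints of 169 regions (34.5%, 30.3 to 38.9). Without the 10 gaps with a longest gene-free stretch the share of regions was 37.6%, and the matching coverage of far sequence without them is not given. The regions lay in 141 such genes, 69 of them with provisional LOC names, and 125 of all 155 genes not classed as protein-coding held a single region. After CCDC26 with 8, BALR6 and LOC105370777 had 6 each and MIR181A1HG 5. TRD-AS1 had 4. Long noncoding RNA genes with 3 were CYP1B1-AS1, LINC01800, LINC02542, LOC105374523, LOC105374524, LOC105376360 and LOC107984788. LINC01800 spans 17.5 kb on chromosome 2, and its regions, all nearest to SLC1A4, scored 165.16 and 96.35, 463.48 and 369.39, and 77.01 and 76.44. Of 47 blood-linked noncoding genes listed, 23 reach into far sequence and 7 held regions. No matching share over all noncoding genes is given, so this count is only a description. The 7 genes span from 66.1 kb (CYTOR) to 329 kb (CCDC26). Besides CCDC26 and MIR181A1HG these were CYTOR (2, at most 151.6 and 184.82), LINC-PINT (2), LINC00598 (268.98 and 273.02), LINC01934 (117.02 and 139.48) and LINC00299 (70.07 and 62.76).

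A few regions lay in loci that the table does not class as protein-coding although they encode proteins. On chromosome 14, 4 were inside the T-cell receptor alpha locus TRA and within TRD-AS1, 3 of them also within the delta locus TRD, with ab21061 scores of 85.29 to 92.6 and sc8558 scores of 58.84 to 64.88. On chromosome 7, 3 lay inside the T-cell receptor beta locus TRB, at 132.13 to 145.25 and 72.31 to 170.48. Together with the noncoding genes, these leave 305 of the 490 regions outside every annotated gene. Among the 305, 231 were over 10 kb and 60 over 100 kb from the end of any gene, so the name intergenic holds in full for 305.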

How the data were processed

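The deposited files list peaks of 2 libraries on hg38, with a peak score from the authors' caller in its own unit. The tools named, per the submitters' processing notes, are MACS 1.4.2 and Bowtie2 2.2.9. The sources used here give no options, read filters or control, and depth is unknown. Start positions were raised by 1 to count from 1.

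Genes came from a RefSeq table for GRCh38.p14 (20037 protein-coding). It places 718 genes of other scaffolds on chromosome coordinates, and without them the same 490 regions were found. Distances ran from peak midpoints to either gene end. Where 2 sc8558 peaks overlapped a region, the one with the larger overlap gave its score. Intervals were Clopper-Pearson, Newcombe, Poisson or order-statistic, and functions were checked on simulated data. No genome sequence was used, so motifs were searched only in RefSeq promoter windows. Named regions followed a rule: the 10 best by worse rank, the 5 farthest, 3 on either side of the limit, the 6 largest groups, the 10 fullest gaps, up to 4 genes per list, microRNA genes within 10 kb and the 10 noncoding genes with most regions. Further examples were chosen after their values were seen. Regions and gene lists were chosen with earlier results of these data known. Scripts ran under Python 3.11.15 with scipy 1.17.1, pandas 2.3.3 and numpy 2.4.6, and plots were drawn with matplotlib 3.10.9.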

Additional observations from a re-analysis of the deposited data

How the results depend on the processing

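Each antibody had 1 library, so none was left out. No paired analysis was possible because neither antibody had a replicate. Settings that leave out gaps with a longest gene-free stretch, the gap from MYC to GSDMC or genes of other scaffolds were chosen after seeing the data. Motifs in whole peaks were not searched. Causes of the changes below were not tested, except where fewer or more peaks enter by construction.

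The number of far regions was 180 where the ab21061 peak and any sc8558 peak over it scored at least 100 (179 by the sc8558 peak of larger overlap), 785 over 50 kb, 276 over 200 kb, 1101 with the longest stretches kept and 60 over 100 kb from a gene of any type. Density was 0.771 per Mb over 50 kb and 0.489 over 200 kb. At a score of 100 or more 90.2% of far ab21061 peaks were overlapped, and the difference from nearer and genic peaks, -1.29 points, had an interval including 0. Of the regions 67.6% scored 80 or more and 29.6% 150 or more, with differences from nearer and genic shared peaks of -2.43 and -3.28 points, both intervals including 0. The rho of widths was 0.720 where both peaks scored at least 100. Counting the nearest gene only, regions beside blood transcription factor, signalling, neuronal and developmental genes were 6.53, 3.06, 3.27 and 2.24% of all. With both scores at least 100, 0% lay beside retinoid and PML-RARA genes. Another 51 values under other settings kept the direction and stayed within the interval, or within 1.5 times the count, of the value reported.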

Other observations

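Among the 60 regions over 100 kb from the end of a gene of any type, the highest by worse rank was chr7:81298954-81300029, with scores of 459.6 and 429.05. It lay in the gap between SEMA3C, which encodes a secreted guidance protein, and HGF, which encodes hepatocyte growth factor, at 377 kb from the former. Of the 60, 32 lay in the gaps with a longest gene-free stretch. Another of the 60, chr2:129087185-129087767, scored 175.7 and 169.73 in the gap from HS6ST1 to RAB6C. In the gap from NAMPT, which encodes an enzyme of NAD synthesis, to CCDC71L, 4 regions lay in 0.168 Mb of far sequence, 23.7 per Mb. Of these, 2 ab21061 peaks shared 1 sc8558 peak with a score of 162.89, so their sc8558 values are not separate. The gap from IRF2BP2, a corepressor gene of interferon regulatory factor 2, to TOMM20 held 4, the highest at 295 and 253.01. These gaps and regions were chosen after their values were seen.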
